A study of Homo sapiens with 6 samples.

Results

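The genes described here encode the proapoptotic members of the BCL2 family, measured in HK-2 cells with and without cisplatin. The members were the 10 genes BBC3, PMAIP1, BIK, BMF, BCL2L11, BID, BAD, BAX, BAK1 and BOK, of 18239 genes with a probe set of their own. They were found by gene symbol in the annotation of the array, where they held 41 of 45253 probe sets that name 1 gene. All 10 were measured. HK-2, a widely used human cell line, comes from proximal tubule epithelium of an adult kidney and was immortalised with papillomavirus oncogenes. All groups grew in serum-free keratinocyte medium with glutamine, epidermal growth factor and a bovine pituitary extract. The groups were untreated control cells, cells given 50 μM cisplatin for 6 h and cells given 50 μM cisplatin for 24 h, with 2 arrays in each. The labels call the arrays biological replicates and say nothing of how cultures were kept apart, so the p-values rest on how far these samples lie apart, which may be technical. They give no time for the control cells, so cisplatin and time in culture cannot be told apart.

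Proteins of the BCL2 family decide at the outer mitochondrial membrane whether cytochrome c leaves and the caspases start. The effectors BAX and BAK1 form pores in that membrane, and BOK is a related protein that also sits on the endoplasmic reticulum. The BH3-only proteins act upstream: they bind the prosurvival proteins such as MCL1 and BCL2L1 in a groove, or activate BAX and BAK1 directly. Several of their genes are known targets of p53, and in the kidney the tubule cell is where cisplatin accumulates and kills.

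Each value below is a log2 signal, so that a difference of 1 is a doubling, and each has meaning only against the rest of its array. A gene was read by its brightest probe set over the 6 arrays, and its other probe sets are given after it. Signals of the 10 genes were not compared with each other. The brightest probe sets of BIK, BMF and BAD are of the maker's class x_at, whose probes may also match unrelated sequences, and that of BOK is of the class s_at, whose probes match transcripts of several genes. An alternative without both classes was added after the data were seen. In these bulk samples fewer cells and less RNA per cell cannot be told apart. Differences were tested in limma in 1 fit over the 3 groups, with p-values adjusted over all genes by the method of Benjamini and Hochberg, and an adjusted p under 0.05 is written as higher, lower, rose or fell. The 2 arrays of a group differed over all genes by a median of 0.10 for control, 0.08 for 6 h and 0.11 for 24 h. Of the 7 proximal tubule markers measured, SLC34A1 and SLC5A2 alone were above the array median in control cells, against 5 of 8 markers of kidney epithelium, 2 of 5 of fibroblasts (DCN and LUM), 1 of 4 of endothelium (PECAM1), 1 of 1 of erythroid cells (HBB) and 0 of 3 of leukocytes. In control cells SLC5A2 averaged 4.58, PECAM1 4.56 and HBB 4.97, against an array median of 4.48, while KRT19 averaged 11.65 and LUM 8.88. The signal of the 3′ end of beta-actin RNA over its 5′ end averaged 1.59 ± 0.68 on control arrays, 1.77 ± 0.34 on 6 h arrays and 2.40 ± 0.61 on 24 h arrays (log2, SD, n = 2 each), and that of GAPDH RNA averaged 0.265, 0.249 and 0.349 on the same groups of arrays. Their part in the results was not tested.

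The level of the arrays against their spike-in controls also moved with treatment. Scaling to all 36 spike-in probe sets lowered every log2 fold change by 0.37 at 6 h and by 0.89 at 24 h. The median of all genes then stood at −0.34 and −0.78, against 0.03 and 0.10 as deposited. Each rise below is therefore a rise relative to the rest of the array. The genes whose direction turned under such a scaling, where called before or after it, are named with their values.

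The promoters of 3 genes are shown. PMAIP1 had the largest rise of the 10 genes and BOK the largest fall. BCL2L11 rose on the most probe sets, and it also held the most, 14 of the 41. The promoter windows are the plus strand of GRCh38.p14 from RefSeq, 5′ to 3′, with 250 bases before the start site and 50 after it. PMAIP1 lies at chr18:59899746-59900045, BCL2L11 at chr2:111120664-111120963 and BOK at chr2:241558495-241558794. The annotated BOK gene spans chr2:241551393-241574131, so the BOK window surrounds a start site inside the gene and not the gene's first base. Capitals mark every GC box (GGGCGG, the site of the SP1 family), in PMAIP1 also the cAMP response half-site (TGACG), and in BCL2L11 also the forkhead site (GTAAACA, the site of FOXO factors), each on either strand.
PMAIP1: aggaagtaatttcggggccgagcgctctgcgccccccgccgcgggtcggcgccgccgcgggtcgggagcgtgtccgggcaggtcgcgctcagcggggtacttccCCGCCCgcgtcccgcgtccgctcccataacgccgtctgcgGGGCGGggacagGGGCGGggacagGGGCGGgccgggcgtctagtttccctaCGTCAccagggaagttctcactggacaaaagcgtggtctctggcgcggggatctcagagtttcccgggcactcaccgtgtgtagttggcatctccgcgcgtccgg
BCL2L11: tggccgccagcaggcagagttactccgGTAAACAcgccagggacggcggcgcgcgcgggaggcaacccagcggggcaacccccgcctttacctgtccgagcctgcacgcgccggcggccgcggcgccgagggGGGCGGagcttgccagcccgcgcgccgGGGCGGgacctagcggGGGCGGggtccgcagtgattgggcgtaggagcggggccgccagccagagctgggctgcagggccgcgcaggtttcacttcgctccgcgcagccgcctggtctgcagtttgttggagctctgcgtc
BOK: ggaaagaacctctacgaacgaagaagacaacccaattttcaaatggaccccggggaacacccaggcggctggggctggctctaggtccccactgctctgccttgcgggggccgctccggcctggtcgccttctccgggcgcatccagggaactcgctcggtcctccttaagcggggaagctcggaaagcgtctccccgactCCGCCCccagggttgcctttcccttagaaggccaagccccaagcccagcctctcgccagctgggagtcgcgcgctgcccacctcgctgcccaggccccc

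The PMAIP1 window held 4 GC boxes, at −146, −106, −94 and −82 from the start site, and 1 cAMP response half-site at −55. The BCL2L11 window held 3 GC boxes, at −118, −91 and −75, and 1 forkhead site at −223. The BOK window held 1 GC box, at −49. A GC box was found in 45.0% of all 35116 promoter windows of the same length, the cAMP response half-site in 24.6% and the forkhead site in 3.42%. Of the 10 genes 9 matched the promoter table, with 15 windows, and BIK is named only. A GC box was in 12 of the 15, in windows of PMAIP1, BCL2L11, BOK, BAD, BAK1, BAX, BID and BMF. The cAMP response half-site was in windows of PMAIP1, BAD, BAX and BMF. BCL2L11 alone among the 9 genes held a forkhead site. The p53 half-site, which was present in 6.63% of all windows, was found among these genes only in BAK1, at −73. The E-box (CACGTG) was in 7.26% of all windows and in those of BAX, BBC3 and BID, with 4 matches in BAX. The AP-1 site (TGANTCA) was in 7.71% of all windows and in that of BBC3. A match is a run of letters and was not tested as a binding site. In the same annotation BCL2L11 and BOK are both on chromosome 2, BBC3 and BAX on 19, and BID and BIK on 22, with BAK1 on 6, BAD on 11, BMF on 15 and PMAIP1 on 18.

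At 6 h, 4 of the 10 genes were higher than in control cells (PMAIP1, BIK, BCL2L11 and BAD) and 3 were lower (BBC3, BID and BOK). Over all genes 14.0% were higher and 15.8% lower. At 24 h, 6 were higher (PMAIP1, BIK, BCL2L11, BAD, BMF and BAX) and 2 were lower (BID and BOK), where 31.2% of all genes were higher and 23.0% lower. The median log2 fold change of the 10 genes was 0.19 at 6 h and 0.49 at 24 h, beside 0.03 and 0.10 for all genes. Both comparisons use the same control arrays. Of the 7 BH3-only genes 4 were higher at 6 h and 5 at 24 h. Of the 3 effectors, BAX was higher at 24 h, BOK was lower at both times and BAK1 was called at neither.

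**Figure D1:**
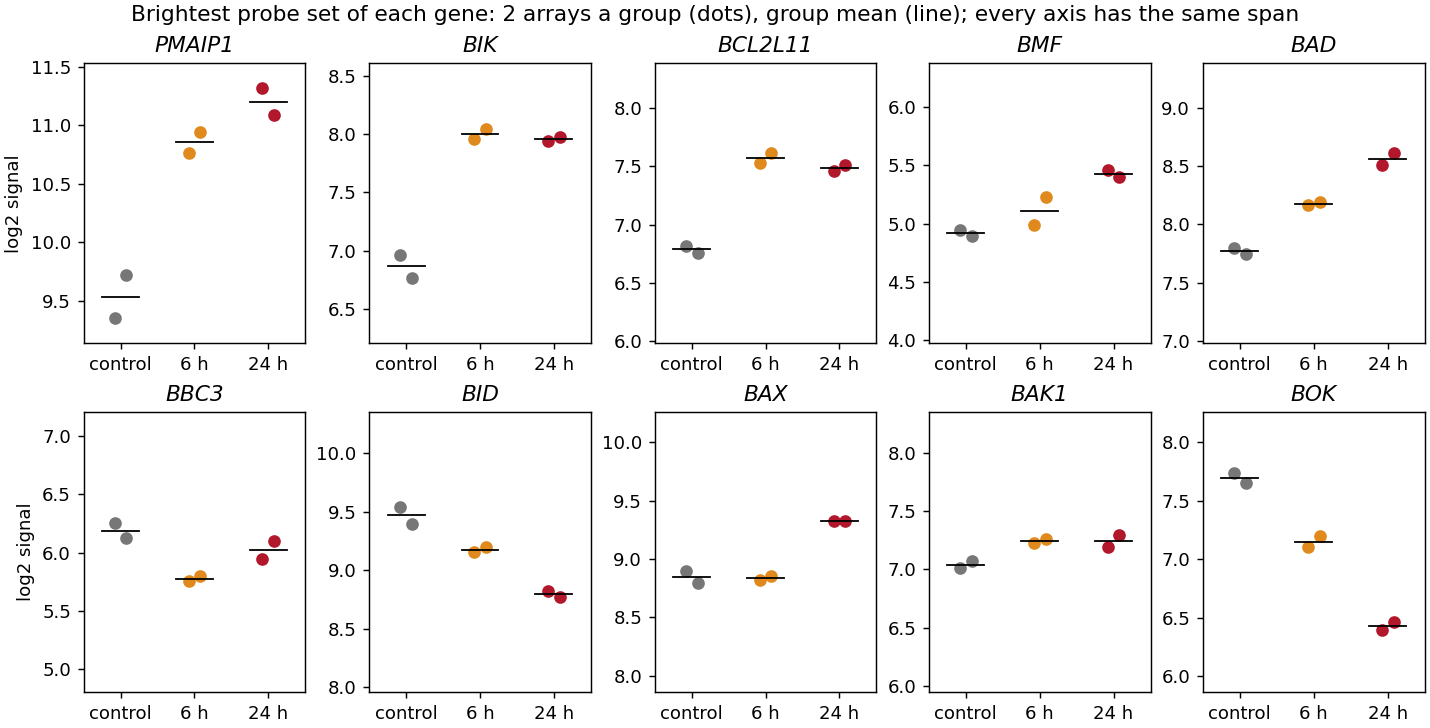
Log2 signal (vertical axis, the same span in every panel) of the brightest probe set of each gene in control cells and after 6 h and 24 h of cisplatin. Dots are the 2 arrays of a group and lines are group means. As deposited, PMAIP1, BIK and BCL2L11 were already higher at 6 h, BAX was higher only on the 24 h arrays, and BOK and BID were lower at each time.

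PMAIP1, which encodes the BH3-only protein NOXA that binds MCL1, had the largest rise of the family. Its signal was 9.35 and 9.72 on the control arrays, 10.76 and 10.94 at 6 h and 11.32 and 11.09 at 24 h. Every cisplatin array was above both control arrays by over 1 log2 unit. Against control cells it rose by 1.32 on the log2 scale at 6 h (SE 0.14, limma adjusted p = 0.000178), or 2.50-fold, and 1.67 at 24 h (SE 0.14, 95% interval 1.35 to 1.99, limma adjusted p = 1.90e-05), or 3.18-fold. This placed it at percentile 99.3 of all genes at 6 h and 98.7 at 24 h. The second probe set gave 1.39 at 6 h and 1.53 at 24 h. Against control cells PMAIP1 kept its direction under every scaling to spike-ins, with 0.46 as its lowest value at 24 h. Its difference between the times was 0.35 as deposited. That difference turned to −0.17 with all spike-ins and −0.32 with poly-A spike-ins, and was called in none of these.

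BIK encodes a BH3-only protein of the endoplasmic reticulum that binds prosurvival members. It was at 6.97 and 6.77 in control cells, 7.96 and 8.04 at 6 h and 7.94 and 7.97 at 24 h. The 6 h and 24 h arrays overlapped and both stood clear of the control. Its log2 fold change was 1.13 at 6 h (SE 0.09, limma adjusted p = 4.42e-05) and 1.09 at 24 h (SE 0.09, limma adjusted p = 2.01e-05), that is 2.19-fold and 2.12-fold. All 3 probe sets of BIK were higher at both times, with values between 0.92 and 1.13 at 6 h, and between 0.78 and 1.09 at 24 h. Without x_at and s_at probe sets BIK was at 0.96 and 0.84. With the arrays scaled to the poly-A spike-ins alone, the 24 h value turned to −0.12.

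BCL2L11 encodes BIM, a BH3-only protein that binds all the main prosurvival members and can activate BAX directly, and that is made in several splice forms. Its brightest probe set was at 6.82 and 6.75 in control cells, 7.53 and 7.61 at 6 h and 7.46 and 7.51 at 24 h. This gave a log2 fold change of 0.78 at 6 h (SE 0.08, limma adjusted p = 0.000156) and 0.69 at 24 h (SE 0.08, limma adjusted p = 0.000132). The difference between the times was −0.09 (95% interval −0.27 to 0.10, limma adjusted p = 0.429). With spike-ins the direction was not kept: the log2 fold change at 24 h turned to −0.19 with the arrays scaled to all spike-ins and to −0.52 with poly-A spike-ins.

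The other probe sets of BCL2L11 gave a different time course. Of its 14 probe sets, 7 were higher at 6 h and all 14 at 24 h, with log2 fold changes between 0.40 and 2.49 and a median of 1.23 at 24 h. At 24 h 8 of them were past 1 and 3 past 2. Control means of the 14 ran from 2.63 to 6.79, beside an array median of 4.48 on control arrays. The 3 past 2 started dim, with control means of 3.20, 3.20 and 3.88, all below that median. The s_at probe set with the largest change read 2.90 and 3.50 in control cells, 3.77 and 3.82 at 6 h and 5.72 and 5.66 at 24 h. Another read 5.84 and 5.49 in control cells, 6.34 and 6.11 at 6 h and 7.21 and 7.17 at 24 h. On both the 24 h arrays stood above all 6 h arrays, which the brightest probe set did not show. Between the times, 9 of the 14 were higher at 24 h than at 6 h and 0 were lower (0 also at an unadjusted limma p under 0.05), and the brightest, at −0.09, was the only one below 0. Averaged over the 14, BCL2L11 was at 0.40 at 6 h and 1.27 at 24 h (limma adjusted p = 0.00286 and 1.49e-06). Probe sets of 1 gene read the same RNA and are not independent. Which transcripts each one reads was not analysed here.

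BAD encodes a BH3-only protein that growth factor signalling keeps inactive by phosphorylation. Its signals were 7.80 and 7.75 in control cells, 8.17 and 8.19 at 6 h and 8.51 and 8.61 at 24 h, so that no group overlapped with another. BAD was thus higher by 0.40 at 6 h (SE 0.08, limma adjusted p = 0.00573) and 0.78 at 24 h (SE 0.08, limma adjusted p = 6.49e-05), and the second probe set gave 0.32 and 0.71. Scaled to all spike-ins the 24 h value was −0.10, and with poly-A spike-ins the values were −0.14 at 6 h and −0.43 at 24 h.

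BMF, whose BH3-only product is held by dynein light chain 2 in healthy cells, was at 4.95 and 4.89 in control cells, 4.99 and 5.23 at 6 h and 5.46 and 5.40 at 24 h. The 24 h arrays lay above all others. BMF was higher by 0.51 at 24 h (SE 0.10, limma adjusted p = 0.00247), while at 6 h it was 0.19 (95% interval −0.04 to 0.41, limma adjusted p = 0.204). Of the 4 probe sets of BMF, 2 were higher at 24 h, and 1 was lower at 6 h, at −0.50. Without x_at and s_at probe sets BMF was at 0.14 at 24 h (limma adjusted p = 0.523), and scaling to all spike-ins turned it to −0.38.

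BBC3 encodes PUMA, a BH3-only protein known as a direct p53 target. Its signals were 6.26 and 6.12 in control cells, 5.76 and 5.80 at 6 h and 5.95 and 6.10 at 24 h. The 6 h arrays were the lowest, and the 24 h arrays lay just below the control. Relative to control the log2 fold change was −0.41 at 6 h (SE 0.09, limma adjusted p = 0.00940) and −0.17 at 24 h (95% interval −0.38 to 0.04, limma adjusted p = 0.159). The second probe set was also lower at 6 h, at −0.41, and gave 0.17 at 24 h. The call at 6 h was lost without the first control array (limma adjusted p = 0.0648) and without the first 6 h array (limma adjusted p = 0.0600).

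BID encodes the BH3-only protein that caspase 8 cuts to link death receptors to mitochondria. Its signals were 9.54 and 9.40 in control cells, 9.15 and 9.20 at 6 h and 8.82 and 8.77 at 24 h, with no overlap between groups. The log2 fold change was −0.29 at 6 h (SE 0.08, limma adjusted p = 0.0316) and −0.67 at 24 h (SE 0.08, limma adjusted p = 0.000213), a level 1.59-fold lower at 24 h. All 4 probe sets fell at 24 h, by 0.46 to 0.91 on the log2 scale. The call at 6 h was lost without the first control array (limma adjusted p = 0.150) and without either 6 h array (limma adjusted p = 0.155 and 0.102).

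Among the effectors, BAX, which is a known p53 target and moves from the cytosol to mitochondria, was at 8.90 and 8.80 in control cells, 8.82 and 8.86 at 6 h and 9.33 and 9.33 at 24 h. The control and 6 h arrays overlapped, and the 24 h arrays were above them. The log2 fold change was −0.01 at 6 h (95% interval −0.19 to 0.17, limma adjusted p = 0.956) and 0.48 at 24 h (SE 0.08, limma adjusted p = 0.00105). Its second probe set gave 0.07 at 24 h and was not called, the average of both was 0.27 (limma adjusted p = 0.00805), and scaling to all spike-ins turned the first to −0.40.

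BAK1, which sits in the outer mitochondrial membrane at all times, was at 7.01 and 7.07 in control cells, 7.22 and 7.26 at 6 h and 7.19 and 7.29 at 24 h. The log2 fold change was 0.20 at both times (95% interval 0.01 to 0.39 at each, limma adjusted p = 0.105 at 6 h and 0.0686 at 24 h). It passed the test at neither time, but averaged over its probe sets it was called at 24 h, at 0.26 (limma adjusted p = 0.0127), and with dim probe sets left out it was called at both times (limma adjusted p = 0.0426 at 6 h and 0.0317 at 24 h). Of its 5 probe sets 0 were called at 6 h (1 was higher at an unadjusted limma p under 0.05) and 2 were higher at 24 h, at 0.31 and 0.41, and scaling to all spike-ins turned the 24 h value of the brightest to −0.69.

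BOK had the largest fall. Its signals were 7.73 and 7.65 in control cells, 7.10 and 7.19 at 6 h and 6.39 and 6.46 at 24 h, in 3 groups that did not overlap. The log2 fold change was −0.54 at 6 h (SE 0.08, limma adjusted p = 0.00131) and −1.27 at 24 h (SE 0.08, 95% interval −1.46 to −1.07, limma adjusted p = 4.92e-06), a level 2.40-fold lower at 24 h. It stood at percentile 4.99 of all genes at 24 h. The other 2 probe sets of BOK read −0.34 and −0.12 at 24 h and −0.24 and 0.09 at 6 h, of which the −0.34 was called. Without x_at and s_at probe sets BOK was at −0.12 at 24 h (limma adjusted p = 0.313), and averaged over its probe sets it was at −0.58 (limma adjusted p = 8.44e-05).

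**Figure D2:**
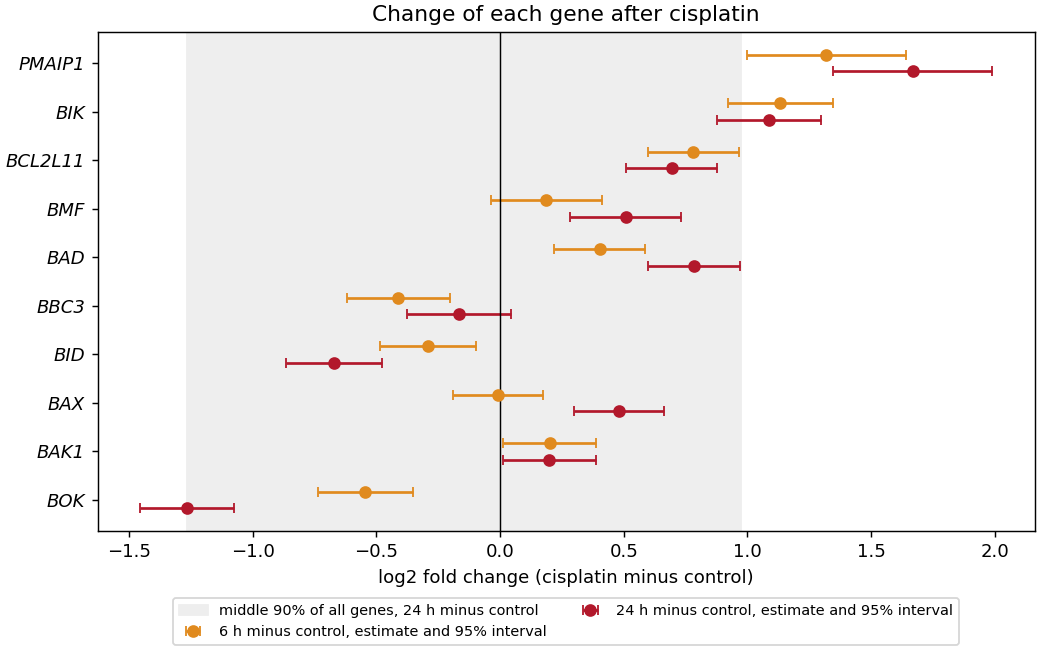
Log2 fold change against control cells (horizontal axis) of the brightest probe set of each gene at 6 h and 24 h, with 95% intervals from the limma fit. The grey band holds the middle 90% of all genes at 24 h, −1.26 to 0.97. As deposited, PMAIP1 at 1.67 and BIK at 1.09 lay above the band at 24 h and BOK at −1.27 lay at its lower edge. BCL2L11, BAD, BMF, BAX and BAK1, above 0 here, were below 0 with the arrays scaled to all spike-ins.

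Counted by probe set, 14 of 41 were higher and 5 lower at 6 h, where 9.85% of all probe sets were higher and 12.7% lower. At 24 h, 26 were higher and 6 lower, where 25.3% and 20.4% of all probe sets were. BCL2L11 alone gave 14 of the 26, so the count follows that gene.

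**Figure D3:**
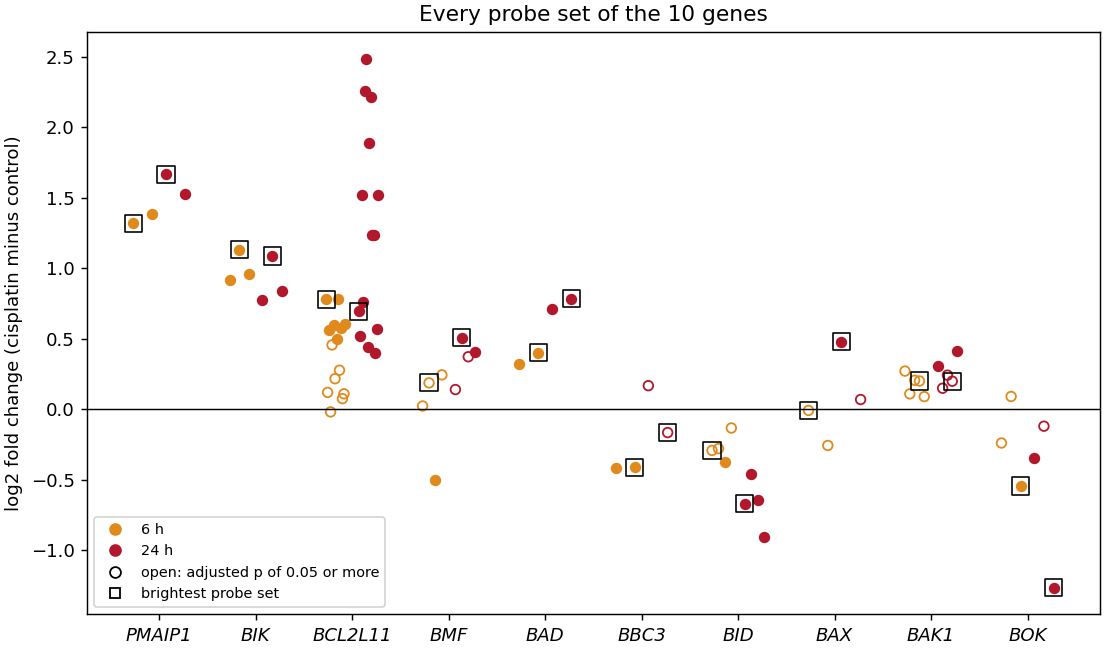
Log2 fold change against control cells (vertical axis) of all 41 probe sets, by gene, at 6 h (left of each pair) and 24 h (right). Filled dots passed an adjusted p of 0.05 and squares mark the brightest probe set. BCL2L11 spans 0.40 to 2.49 at 24 h, all filled, while the square of BOK, at −1.27, stands apart from its other probe sets.

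Between the times, 3 of the 10 genes were higher at 24 h than at 6 h (BAD, BAX and BMF) and 2 were lower (BID and BOK), where 21.2% of all genes were higher and 16.7% lower. BAX differed by 0.49 (SE 0.08, limma adjusted p = 0.00191), BAD by 0.38 (limma adjusted p = 0.00683) and BMF by 0.32 (limma adjusted p = 0.0325). BOK differed by −0.72 (SE 0.08, limma adjusted p = 0.000356) and BID by −0.38 (limma adjusted p = 0.00869). Of these, BAX and BMF had not passed the test at 6 h. PMAIP1 differed by 0.35 (95% interval 0.03 to 0.67, limma adjusted p = 0.0838), BBC3 by 0.25 (limma adjusted p = 0.0651), BIK by −0.05 (95% interval −0.26 to 0.17, limma adjusted p = 0.731), and these 3 did not pass the test of the difference. Averaged over its probe sets BBC3 did pass, at 0.41 (limma adjusted p = 0.00190), and it also passed without the first 24 h array (limma adjusted p = 0.0492). By probe set, 16 of 41 were higher and 4 lower, where 15.4% and 13.3% of all probe sets were. The BMF call was lost without each of 5 of the 6 arrays in turn (limma adjusted p between 0.0523 and 0.226) and was kept without the second 6 h array (limma adjusted p = 0.0218), and without that array the BID call was lost (limma adjusted p = 0.0592).

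The prosurvival partners of these proteins moved on the same arrays. Of 6 prosurvival genes, 3 were lower at 6 h and 3 at 24 h. At 6 h 0 were higher (0 also at an unadjusted limma p under 0.05), and at 24 h 2 were. For these and the other BCL2 family genes below, 14.0% of all genes were higher and 15.8% lower at 6 h. At 24 h the shares were 31.2% and 23.0%. BCL2L1, whose product BCL-XL holds BH3-only proteins and BAK1, had log2 fold changes of −1.28 at 6 h (limma adjusted p = 0.000154) and −2.05 at 24 h (limma adjusted p = 4.43e-06). Its brightest probe set is of the class x_at, and without x_at and s_at probe sets BCL2L1 was at −0.49 at 6 h and −0.16 at 24 h (limma adjusted p = 0.184). MCL1, the main partner of NOXA, was at −0.55 at 6 h and −0.34 at 24 h (limma adjusted p = 0.000822 and 0.00544). Averaged over its probe sets MCL1 was at −0.38 at 6 h, and at 24 h the call was lost, at −0.0066 (limma adjusted p = 0.95). BCL2A1 was at 0.33 at 24 h as deposited, scaling to each of the 3 spike-in sets turned it below 0, and the call was lost without the first control array (limma adjusted p = 0.0735). Its mean signal, 2.51 in control cells and 2.85 at 24 h, lay below the array medians, which were 4.48 on control arrays. Of 9 other BH3 or BCL2 family genes, 1 was lower at 6 h (BCL2L13, at −0.49, and at 0.05 without x_at and s_at probe sets) and 1 higher at 24 h (BCL2L15, at 0.43 as deposited and −0.45 with all spike-ins, and not called without the second control array, limma adjusted p = 0.0509). BCL2L15 also lay below the array medians, with a mean signal of 4.04 in control cells and 4.47 at 24 h.

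Downstream, 0 of 8 measured genes of the outer membrane and the apoptosome were higher (0 also at an unadjusted limma p under 0.05) and 1 lower at 6 h, and 4 were higher and 1 lower at 24 h. XIAP, an inhibitor of caspases, fell at both times, with −0.63 at 6 h and −1.09 at 24 h (limma adjusted p = 0.000377 and 7.07e-06), and with −0.26 and −0.57 averaged over its probe sets, both called. APAF1, the scaffold of the apoptosome, was at 0.52 at 24 h (limma adjusted p = 0.000648) as deposited and at −0.37 with the arrays scaled to all spike-ins. Its mean signal was 4.07 in control cells, below the array median of 4.48, and 4.59 at 24 h. The list held 11 genes, and 3 of them are not analysed here.

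Of 7 measured genes for transcription factors known to act on members of the family, 2 were higher and 1 lower at each time. For this list and the p53 targets below, the shares over all genes were 14.0% higher and 15.8% lower at 6 h. At 24 h they were 31.2% and 23.0%. E2F1 was at 0.81 at 6 h and 1.01 at 24 h (limma adjusted p = 0.000443 and 5.70e-05), and at −0.20 at 24 h with the poly-A spike-ins. FOXO3, a forkhead factor known to act on BCL2L11, was lower, at −0.49 and −0.74 (limma adjusted p = 0.00310 and 0.000144). Of 11 measured p53 targets outside the family, 8 were higher at each time, with 1 lower at 6 h and 3 at 24 h. The lower genes were FAS at both times, and MDM2 and TNFRSF10B at 24 h. MDM2 was at −0.48 there (limma adjusted p = 0.00537), read by the brightest of its 11 probe sets. The other probe sets of MDM2 are not given here. CDKN1A was at 1.91 and 2.42 and GADD45A at 1.67 and 2.57 at 6 h and 24 h, and both stayed above 0 under every scaling. FAS fell, with −0.39 and −0.77 (at 6 h lost without the second control array, limma adjusted p = 0.0506, or the first 6 h array, limma adjusted p = 0.0758), and TNFRSF10B, at −0.10 and −0.85, fell at 24 h alone and was at 0.14 there without x_at and s_at probe sets. Among family members known as p53 targets, PMAIP1 was higher at both times and BAX only at 24 h. BBC3 was higher at neither and was lower at 6 h, at −0.41, with the limits given above. Which of the other members p53 acts on was not analysed here.

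Of 11 genes for partners and regulators of the member proteins, 1 was higher and 3 lower at 6 h, and 3 were higher and 6 lower at 24 h. DYNLL1 and DYNLL2, the dynein light chains that hold BIM and BMF, were at 0.68 and 0.99 at 24 h (limma adjusted p = 0.000125 and 4.82e-05), and DYNLL1 alone was called at 6 h, at 0.47. Scaled to the poly-A spike-ins both turned below 0 at 24 h, to −0.53 and −0.22. RNF144B, a ubiquitin ligase known to act on BAX, fell to 5.33 at 6 h and 4.64 at 24 h, against 6.34 in control cells (log2 fold changes −1.01 and −1.70, limma adjusted p = 0.000120 and 2.64e-06). Averaged over its probe sets it was at −0.25 and −0.51 and remained called. The lists were chosen for their place in the pathway, with earlier results of these data known.

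**Figure D4:**
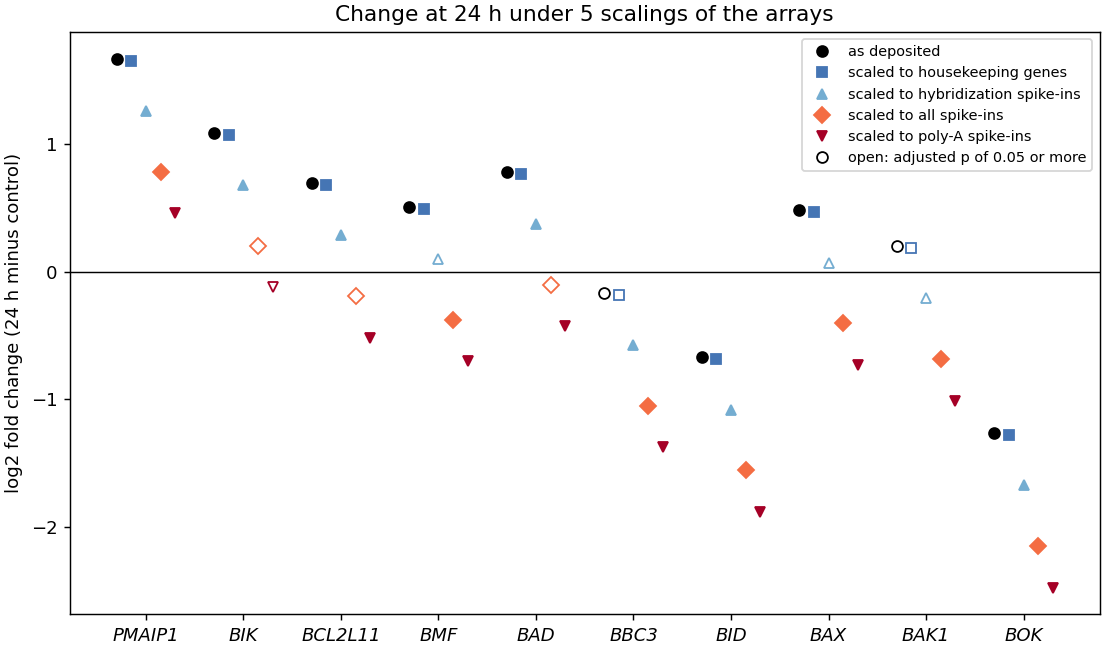
Log2 fold change at 24 h against control cells (vertical axis) of each gene, as deposited and under 4 scalings of the arrays. These were to 9 housekeeping genes, 9 hybridization, a set of 12 poly-A or all 36 spike-in probe sets. The 36 include the 9 hybridization and 12 poly-A probe sets with others, so the spike-in scalings overlap. Open symbols did not pass an adjusted p of 0.05. PMAIP1 stayed above 0 in all 5, from 0.46 to 1.67, BOK, BID and BBC3 stayed below 0, and the others crossed 0 with the poly-A spike-ins.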

How the data were processed

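RNA of HK-2 cells was labelled and hybridised to 6 single-colour Affymetrix arrays. The authors deposited log2 signals, which they made by robust multi-array average (RMA) in Affymetrix Expression Console 1.1, per the methods and the submitters' processing notes. RMA sets all arrays to 1 distribution, so a change shared by most genes is removed and each value is relative to its array. Nothing was normalised again. With 6 arrays the precision is limited by their number.

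Probe sets took their gene from the platform annotation. Of 49386 probe sets, 45253 had 1 gene, 1327 had several, 2713 were unnamed here and 93 were controls. Some listed genes had no such probe set and are not analysed here. Tests used limma 3.58.1 (R 4.3.3), lmFit and eBayes, in 1 fit of 3 groups with 3 residual degrees of freedom, adjusted over 18239 genes, and were tested on simulated data. Other steps used Python 3.11.15 and pandas 2.3.3.

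The named genes are the 10 members, MCL1 and BCL2L1, and from each of 6 pathway lists the called gene with the largest rise and fall at each time. MDM2, lower at 24 h, is named as well, without the alternatives below. The members and lists were chosen with earlier results of these data known. Each result was also computed with a replicate block, with averaged probe sets of a gene, with trend and robust eBayes, in fits of the compared groups alone, with dim probe sets removed (kept at a log2 of at least 5 on at least 2 arrays), under 4 scalings, with no moderation, at stricter thresholds, with adjustment over probe sets, without each array and, added after the data were seen, without x_at and s_at probe sets. Of 11 housekeeping genes listed for scaling, 9 were measured.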

Additional observations from a re-analysis of the deposited data

Results flagged for a closer look

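The signal differed between the 24 h and 6 h arrays for 5 of the 10 genes, by the test of that difference in the limma fit. Over all genes 21.2% were higher and 16.7% lower in the same test. Cisplatin and time in culture cannot be told apart here. Each difference is 24 h minus 6 h on the log2 scale as deposited. BAX differed by 0.49, BAD by 0.38 and BMF by 0.32, and BID differed by −0.38 and BOK by −0.72. Scaled to all spike-ins the differences were −0.025 for BAX, −0.13 for BAD, −0.19 for BMF, −0.89 for BID and −1.23 for BOK. For BOK the difference was −0.21 without x_at and s_at probe sets. Groups of 2 arrays are too small to look for a single array that stands apart.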

How the results depend on the processing

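Of 600 values of the 10 genes under the alternatives, 511 kept their side of the threshold, 493 of them with the same sign. Another 46 lost the call and 22 gained one with the same sign. In all 39 values changed sign, 21 of them called before or after and 18 called at neither, and 30 of the 39 came with scaling. Leaving out 1 array at a time ended a call for 11 of 180 values and changed 4 signs, all of uncalled values of BAX at 6 h and BAK1 between the times. The values below are those that changed sign with a call before or after. With the mean of all probe sets, such log2 fold changes were at 6 h BCL2L13 0.018, for 24 h minus 6 h BCL2L11 0.86. Scaled to all spike-ins, such log2 fold changes were at 6 h BCL2A1 −0.36, at 24 h BCL2L11 −0.19, BMF −0.38, BAD −0.10, BAX −0.40, BAK1 −0.69, APAF1 −0.37, BCL2A1 −0.55, BCL2L15 −0.45 and DYNLL1 −0.20, for 24 h minus 6 h BMF −0.19, BAD −0.13, BAX −0.025, APAF1 −0.077, BCL2A1 −0.19, BCL2L15 −0.21, DYNLL1 −0.30, E2F1 −0.32 and MCL1 −0.31. Scaled to the hybridization spike-ins, such log2 fold changes were at 24 h BCL2A1 −0.078, for 24 h minus 6 h BCL2L15 −0.0086. With the poly-A spike-ins, such log2 fold changes were at 6 h BAD −0.14, APAF1 −0.46, BCL2A1 −0.53, BCL2L15 −0.41 and DYNLL1 −0.070, at 24 h BCL2L11 −0.52, BIK −0.12, BMF −0.70, BAD −0.43, BAX −0.73, BAK1 −1.01, APAF1 −0.69, BCL2A1 −0.88, BCL2L15 −0.78, DYNLL1 −0.53, DYNLL2 −0.22 and E2F1 −0.20, for 24 h minus 6 h BBC3 −0.42, BMF −0.35, BAD −0.29, BAX −0.18, APAF1 −0.23, BCL2A1 −0.35, BCL2L13 −0.41, BCL2L15 −0.37, CDKN1A −0.15, DYNLL1 −0.46, E2F1 −0.47 and MCL1 −0.46. Without x_at and s_at probe sets, such log2 fold changes were at 6 h BOK 0.091 and BCL2L13 0.054, at 24 h BCL2L13 0.30 and TNFRSF10B 0.14, for 24 h minus 6 h BCL2L1 0.32 and TNFRSF10B 0.21. The causes of these changes were not tested, beyond the lower level that scaling to spike-ins gives every gene.

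Counts of genes moved as well, given as higher and lower genes, then higher and lower probe sets. The shares of all genes called under the alternatives are not given here, so these counts were not set against them. At 24 h the median of all genes stood at −0.78 with all spike-ins, −0.31 with hybridization and −1.11 with poly-A spike-ins. Scaled to all spike-ins, the counts at 24 h were 1 and 6, then 10 and 23, those between the times 0 and 5, then 8 and 18, and those of probe sets at 6 h 7 and 12. With the hybridization spike-ins, 0 and 5 genes differed between the times, then 9 and 12 probe sets, 17 probe sets were higher at 24 h and 8 lower at 6 h. With the poly-A spike-ins, 2 genes were higher at 6 h, the counts at 24 h were 1 and 8, then 5 and 30, those between the times 0 and 6, then 4 and 20, and those of probe sets at 6 h 4 and 19. Scaled to housekeeping genes, 5 genes were higher at 24 h than at 6 h and 9 probe sets lower at 6 h. With the mean of all probe sets, 5 genes were higher at 24 h than at 6 h. With no moderation, 1 gene was lower at 6 h, 5 probe sets were higher with 2 lower there, and 9 were higher at 24 h than at 6 h. Without x_at and s_at probe sets, 1 gene was lower at 24 h and 1 between the times, and the probe set counts were 8 with 3 at 6 h, 17 higher at 24 h, and 10 with 2 between the times. At an adjusted p of 0.01, the probe set counts were 8 with 1 at 6 h, and 10 with 2 between the times. By the methods' rule of a 2-fold change and an unadjusted p of 0.01, the genes were 2 higher with 0 lower at 6 h (3 and 0 probe sets), 2 with 1 at 24 h (11 and 1) and 0 and 0 between the times (4 and 0).

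Without 1 array, 4 genes were higher at 6 h and 6 at 24 h in every case, 1 to 3 were lower at 6 h, 2 at 24 h, and 2 to 3 were higher and 1 to 2 lower between the times. For probe sets the ranges were 8 to 14 higher with 1 to 5 lower at 6 h, 22 to 26 and 5 to 6 at 24 h, and 11 to 17 and 2 to 3 between the times. The replicate numbers are shared by the groups, and the labels do not say whether they pair the samples. Correlations of the replicate deviations between groups were 0.05, −0.06 and −0.06. With 1 deviation per group these cannot settle whether cultures were paired. With the replicate number as a block, the counts were 4 and 3 genes at 6 h, 6 and 2 at 24 h and 3 and 2 between the times, and no call of the 10 genes changed. With 2 arrays a group, small changes such as those of BAK1 were at the limit of what could be called.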
